A study of Rattus norvegicus with 24 samples.

Results

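The 10 genes described here carry or tune the calcium signal that makes a skeletal muscle fibre contract. They are Cacna1s, Ryr1, Stac3, Jph1, Jph2, Trdn, Sln, Pln, Pvalb and Rcan1. Each was taken by its gene symbol from the deposited expression table, where it had 1 row, so the group holds 10 of the 21067 genes listed. All 10 passed the filter on low values, a mean of at least 0.1 FPKM (mapped fragments scaled to transcript length and to the size of the library), as did 14772 genes in all.

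The RNA came from the quadriceps muscle of 24 young Sprague-Dawley rats of both sexes, with 6 rats and 6 libraries of poly(A) mRNA per group. The study was made to learn how acupoint catgut embedding acts on exercise-induced fatigue. In this treatment a short absorbable collagen thread is left under the skin or in the muscle at an acupoint. The labels give neither the sex of a rat, nor its cage, nor a sequencing batch. By the study's methods each group held as many males as females. Summed Y-linked transcripts were at 8.45 to 21.6 FPKM in 3 of the 6 libraries of the control, treadmill and catgut 1 groups but in only 2 of the 6 of catgut group 2, and at most 0.0287 FPKM in the others, so the sexes were not balanced in comparisons with catgut group 2.

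All rats, the control rats included, first passed a short habituation to the treadmill. The control group, called blank in the labels, then had no treadmill training. The treadmill group trained for several weeks at rising speed and ended with a run to exhaustion. Catgut group 1 received threads at the acupoints Qian Shen, Yang Wa, Han Gou, Xie Qi, Bai Hui and Qiang Feng before the same training and run. Catgut group 2 received them at these acupoints and at Fei Shu. Some of the points lie in the hind limb, the limb of the muscle sampled, and no group had threads without training. Training, exhaustion and threads therefore cannot be told apart where a catgut group is set against the control group.

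In a muscle fibre, an action potential runs into the transverse tubules, where the voltage sensor of the L-type calcium channel pulls open the ryanodine receptor of the sarcoplasmic reticulum. The membranes meet at triads, which junctophilins tie together and triadin helps to organise. Calcium is then pumped back by the ATPase SERCA, which small membrane peptides such as sarcolipin and phospholamban restrain, and parvalbumin binds calcium in fast fibres to speed relaxation. Calcium also activates the phosphatase calcineurin, whose inhibitor Rcan1 is itself switched on by calcineurin and NFAT.

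The total count per library was 45945938 to 78278080, and the median correlation of a library with the others across genes was 0.961 to 0.979. The commonest counts above 0 were 4 and 8. If 4 counts stand for a fragment, 12 counts are the worth of 3 fragments, and this was taken as the limit of detection. It covers counting error only. The sources used here do not say what a count stands for. Some counts are not multiples of 4, such as 7 for Sln in treadmill replicate 2. Fast fibre markers were high in every library, with a summed level of 43141 to 65259 FPKM over Myh1, Tnnt3, Tnni2, Tnnc2, Actn3 and Mylpf. The fast myosin genes Myh2 and Myh4, also on this marker list, had no row under these symbols and are not in the sum. The slow fibre markers Myh7, Tnnt1, Tnni1, Tnnc1, Myl2 and Myl3 varied far more, and their sum was 31.8 to 1782 FPKM in the control group (median 212). It was 5.99 to 2208 FPKM in the treadmill group (median 914), 9.82 to 3271 FPKM in catgut group 1 (median 1543) and 297 to 4311 FPKM in catgut group 2 (median 1381). This sum is given beside the results it moves with. Liver markers reached 164 FPKM in control replicate 2 and 265 FPKM in treadmill replicate 3, and the summed leukocyte markers stayed between 1.35 and 14.8 FPKM. From the control group to catgut group 2 the median of the summed erythroid markers went from 505 to 891 FPKM, of endothelium from 28.4 to 42 FPKM and of developing or denervated fibres from 15.6 to 26.8 FPKM. That of Schwann cells went from 7.75 to 20 FPKM and that of adipocytes from 6.78 to 1.36 FPKM. The ranges of these sums overlapped between the groups, and their part in the results on the 10 genes was not tested.

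Of the 10 genes, Jph2 differed most clearly between groups: it was lower in catgut group 2 than in the control group, with no overlap between the libraries. Trdn, Jph1, Ryr1 and Pvalb had lower means and Pln a higher mean in catgut group 2, but in edgeR none of these passed the adjustment for all genes tested. With DESeq2, Trdn (adjusted p = 0.0188) and Ryr1 (adjusted p = 0.033) passed it as well as Jph2. DESeq2 passed 695 of the 14772 genes tested in this comparison, where edgeR passed 75. Cacna1s, Stac3, Sln and Rcan1 had an unadjusted p under 0.05 in 0 of the 6 comparisons. From rat to rat, Sln and Rcan1 were higher where the slow fibre markers were higher. In these bulk samples, fewer fibres of a type and less RNA per fibre cannot be told apart.

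**Figure D1:**
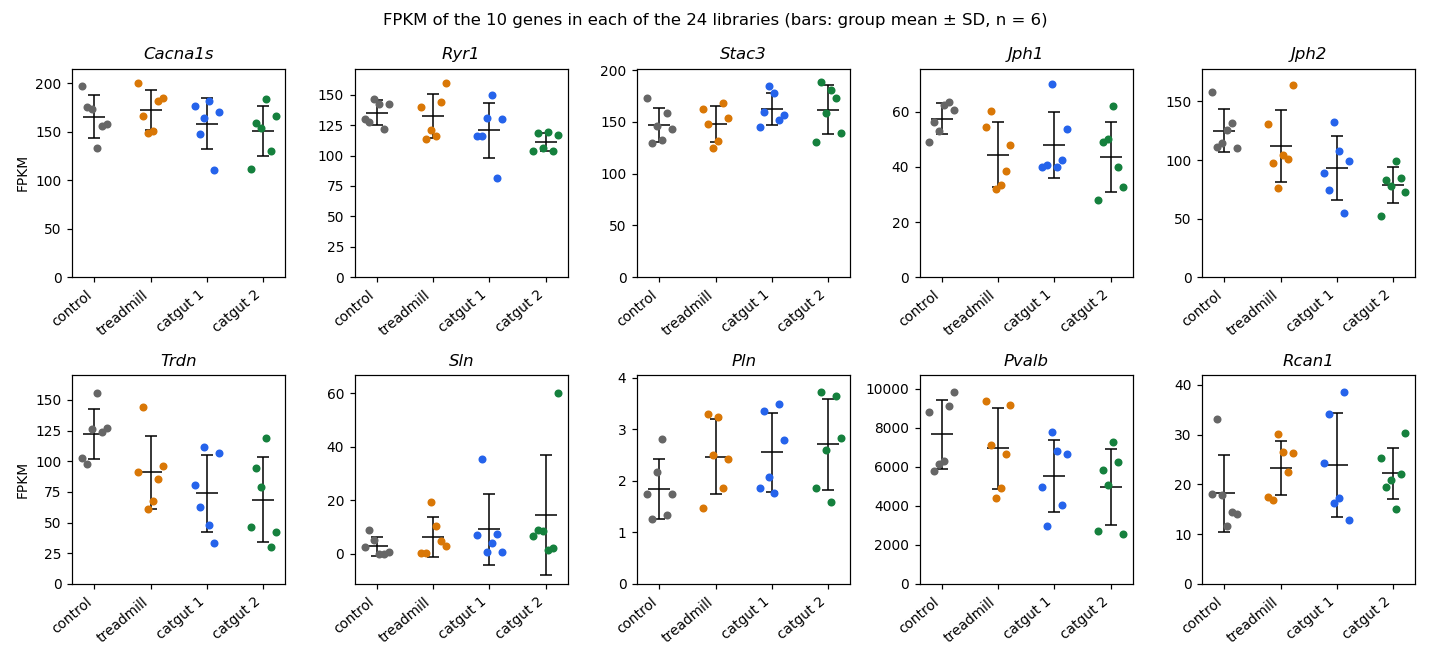
Each point is the FPKM of a gene in 1 library, in panels by gene, with the mean and SD of the 6 libraries of each group as bars. The catgut 2 points of Jph2, 52.6 to 99.1 FPKM, all lie below the control points, which start at 110 FPKM, while the Sln panel is stretched by single libraries at 35.4 and 60 FPKM.

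Cacna1s encodes the voltage-sensing subunit of the skeletal L-type calcium channel (ENSRNOG00000046231, chromosome 13, 52889737 to 52964155 in the deposited table, whose genome build is not given in the sources used here). Its level was 133 to 198 FPKM in the control group (median 166), 149 to 201 FPKM in the treadmill group (median 174), 111 to 182 FPKM in catgut group 1 (median 167) and 111 to 184 FPKM in catgut group 2 (median 157). The 4 ranges overlapped widely. Its coefficient of variation over the 24 libraries was 14.6 percent, and it had an unadjusted p under 0.05 in 0 of the 6 comparisons.

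Stac3 encodes the adaptor that holds this channel at the triad and is needed for its coupling to the release channel (ENSRNOG00000008050, chromosome 7, 70807867 to 70815270). It was the steadiest of the 10 genes, with a coefficient of variation of 12 percent. Its level was 130 to 173 FPKM in the control group (median 145), 125 to 169 FPKM in the treadmill group (median 151), 145 to 185 FPKM in catgut group 1 (median 158) and 130 to 189 FPKM in catgut group 2 (median 166). It too passed the unadjusted threshold in 0 of the 6 comparisons.

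Ryr1 encodes the ryanodine receptor, the calcium release channel of the reticulum (ENSRNOG00000020557, chromosome 1, 87959712 to 88066101). Its level was 121.7 to 147 FPKM in the control group (median 136) and 113 to 159.6 FPKM in the treadmill group (median 131). It was 81.7 to 149.8 FPKM in catgut group 1 (median 123) and 104 to 119 FPKM in catgut group 2 (median 111). All 6 catgut 2 libraries lay below every control library. The means were 111 ± 7.6 and 135 ± 10.2 FPKM (SD, n = 6 each), and the log2 fold change was -0.28 (SE 0.0873). In edgeR's quasi-likelihood test this had an unadjusted p of 0.00685 and an adjusted p of 0.154. The two-sided exact permutation test of log2(FPKM + 1) gave p = 0.00216, the smallest that 924 arrangements of 12 libraries can give.

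Against the treadmill group, Ryr1 in catgut group 2 had a log2 fold change of -0.29 (SE 0.136, edgeR unadjusted p = 0.0498, adjusted p = 0.464), and 3 of the 6 catgut 2 libraries lay below every treadmill library. The treadmill and control means, 132 ± 18.3 and 135 ± 10.2 FPKM, differed by less than the spread between rats.

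Jph2 encodes junctophilin 2, which bridges the tubule and reticulum membranes in skeletal and heart muscle (ENSRNOG00000008170, chromosome 3, 159712325 to 159775643). Its level was 110 to 158 FPKM in the control group (median 120.3) and 76 to 164 FPKM in the treadmill group (median 103). It was 54.4 to 133 FPKM in catgut group 1 (median 94.2) and 52.6 to 99.1 FPKM in catgut group 2 (median 80.4). The highest catgut 2 library was thus below the lowest control library, whereas the treadmill and catgut 1 ranges reached into both.

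In catgut group 2, Jph2 had a mean of 78.4 ± 15.4 FPKM against 125 ± 18.1 FPKM in the control group, and its log2 fold change was -0.69 (SE 0.125). It was the only one of the 10 genes with an adjusted p under 0.05 in any comparison (edgeR, unadjusted p = 0.000104, adjusted p = 0.0392, exact permutation p = 0.00216). Of all genes tested, 0.508 percent had an adjusted p under 0.05 in this comparison and 0.183 percent had one with a lower level. The size of the difference held from fit to fit, from -0.60 to -0.75 on the log2 scale when each of the 12 libraries was left out in turn, but the call did not. The adjusted p was over 0.05 in 9 of these 12 fits, up to 0.0894, and it was 0.0138 without catgut 2 replicate 4. It was 4.77e-05 with DESeq2, 0.0514 with limma and 0.0905 with the slow fibre level as a covariate, where the log2 fold change was again -0.69. With the Y-linked level as a covariate the log2 fold change was -0.72 and the adjusted p 0.031.

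**Figure D2:**
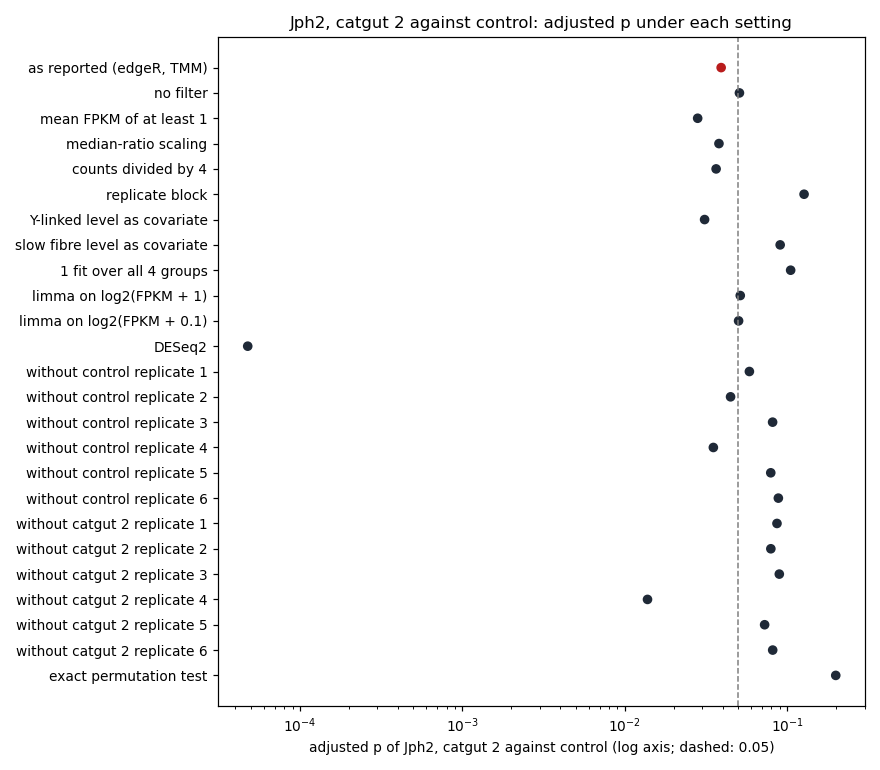
Each point is the Benjamini-Hochberg adjusted p of Jph2, catgut 2 against control, on a log axis under the setting named on the left, with the reported fit in red and the threshold of 0.05 dashed. The points lie on both sides of the threshold, from 4.77e-05 with DESeq2 to 0.199 with the exact permutation test. The latter comes from the smallest p that test can give, 0.00216, so it could not fall below the threshold.

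Against the treadmill group, the Jph2 level in catgut group 2 had a log2 fold change of -0.58 (SE 0.191, edgeR unadjusted p = 0.0101, adjusted p = 0.268, exact permutation p = 0.0303). The ratio of the mean FPKM was 0.698, short of the 1.5-fold limit that the study's methods set for a differentially expressed gene (DEG) together with an unadjusted p under 0.05. Without treadmill replicate 3, or without catgut 2 replicate 4, Jph2 met that criterion. In catgut group 1 the log2 fold change against the control group was -0.42 (SE 0.188, edgeR unadjusted p = 0.0428, adjusted p = 0.489), and 5 of the 6 catgut 1 libraries lay below every control library. The treadmill mean, 112 ± 30.8 FPKM, was within the spread of the control group. Of the 6 treadmill libraries, however, 4 lay below every control library and 1 above every one. Catgut group 1 at 93 ± 27.1 FPKM and catgut group 2 differed by less than their spread.

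Jph1 encodes junctophilin 1, the form found mainly in skeletal muscle (ENSRNOG00000006110, chromosome 5, 1417478 to 1511416). Its level was 49 to 63.7 FPKM in the control group (median 58.5), 31.9 to 60.4 FPKM in the treadmill group (median 43.3), 39.8 to 70 FPKM in catgut group 1 (median 41.8) and 27.9 to 62.2 FPKM in catgut group 2 (median 44.5). All 3 trained groups had lower medians than the control group and wider ranges, with 4, 4 and 3 of their 6 libraries below every control library. The log2 fold change against the control group was -0.35 in the treadmill group (SE 0.135, edgeR unadjusted p = 0.0223, adjusted p = 0.503). It was -0.27 in catgut group 1 (adjusted p = 0.483) and -0.42 in catgut group 2 (SE 0.138, unadjusted p = 0.00975, adjusted p = 0.170). These 3 values share the same control libraries and are not independent of each other.

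Trdn encodes triadin, a reticulum protein that anchors calsequestrin to the release channel (ENSRNOG00000012609, chromosome 1, 25403390 to 25839345). Its level was 97.6 to 156 FPKM in the control group (median 125) and 60.8 to 144 FPKM in the treadmill group (median 88.5). It was 33.3 to 112 FPKM in catgut group 1 (median 71.7) and 30.3 to 119 FPKM in catgut group 2 (median 62.7). In each trained group 4 or 5 of the 6 libraries lay below every control library, and the others reached into the control range. The log2 fold change against the control group was -0.41 in the treadmill group (SE 0.156, edgeR adjusted p = 0.503), -0.72 in catgut group 1 (SE 0.244, adjusted p = 0.401) and -0.86 in catgut group 2 (SE 0.258, adjusted p = 0.141). The unadjusted p-values were 0.0223, 0.0109 and 0.00555, and the exact permutation p-values were 0.0541, 0.0130 and 0.00866. With the slow fibre level as a covariate, the difference between catgut group 2 and the control group was -0.49 on the log2 scale, with an unadjusted p of 0.0828.

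The 250 bases before the RefSeq gene start are shown for Jph2 and Trdn because their levels were lower together in the catgut groups, with each match to GGAAA on either strand, the core that NFAT factors bind, in capitals. They are read 5′ to 3′ along the gene from the GRCr8 build, which differs from the build of the deposited coordinates. Jph2 lies on the minus strand at chr3:172477922-172478171, and Trdn on the minus strand at chr1:26229600-26229849.
Jph2: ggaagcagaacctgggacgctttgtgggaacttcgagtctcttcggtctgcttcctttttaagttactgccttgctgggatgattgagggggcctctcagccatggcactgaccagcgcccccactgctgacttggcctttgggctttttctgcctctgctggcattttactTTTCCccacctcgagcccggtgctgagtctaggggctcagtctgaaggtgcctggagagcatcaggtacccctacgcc
Trdn: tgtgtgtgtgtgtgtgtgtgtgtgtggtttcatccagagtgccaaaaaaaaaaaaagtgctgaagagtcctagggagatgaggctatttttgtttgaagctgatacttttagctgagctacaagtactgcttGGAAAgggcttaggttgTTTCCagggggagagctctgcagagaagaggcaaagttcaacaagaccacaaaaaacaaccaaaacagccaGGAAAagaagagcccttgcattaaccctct
The core occurred 1 time before Jph2 and 3 times before Trdn. It is short and common, and 56.9 percent of the 33469 RefSeq promoters of this length hold it, so its presence describes the letters and says nothing about binding.

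Sln encodes sarcolipin, which binds SERCA and lets it spend ATP without moving calcium (ENSRNOG00000009047, chromosome 8, 58431407 to 58435654). It was the most variable of the 10 genes, with a coefficient of variation of 162 percent. Its level was 0 to 9 FPKM in the control group (median 1.65), 0.352 to 19.4 FPKM in the treadmill group (median 3.83), 0.646 to 35.4 FPKM in catgut group 1 (median 5.65) and 1.47 to 60 FPKM in catgut group 2 (median 7.53). The medians rank in that order, but the ranges overlapped in every pair of groups. At or under the limit of 12 counts were 2 control, 2 treadmill and 1 catgut 1 library, and both of those control libraries had a count of 0.

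The log2 fold change of Sln was 2.33 between catgut group 2 and the control group, with an SE of 1.22 that reflects this spread (edgeR unadjusted p = 0.0782, adjusted p = 0.362). It was 1.61 between catgut group 1 and the control group (adjusted p = 0.707) and 1.17 between the treadmill and control groups (adjusted p = 0.798). When 1 library was left out these values ran from 0.86 (without catgut 2 replicate 6) to 3.12, from 0.464 (without catgut 1 replicate 2) to 2.40 and from 0.445 (without treadmill replicate 3) to 1.97, each highest without control replicate 2. Against the treadmill group it was 0.44 in catgut group 1 (adjusted p = 0.988) and 1.15 in catgut group 2 (adjusted p = 0.778). The first of these turned to -0.71 without catgut 1 replicate 2, and the second to -0.32 without catgut 2 replicate 6. Between the catgut groups it was 0.72 (adjusted p = 1), and it turned to -0.75 without catgut 2 replicate 6. With the slow fibre level as a covariate, the value for catgut group 2 against the control group was 0.57, with an unadjusted p of 0.576.

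Pln encodes phospholamban, the related SERCA inhibitor of heart, slow skeletal and smooth muscle (ENSRNOG00000000413, chromosome 20, 34633157 to 34642904). It was the lowest of the 10 genes, with a mean of 2.39 FPKM over all libraries. Its level was 1.25 to 2.82 FPKM in the control group (median 1.74), 1.47 to 3.3 FPKM in the treadmill group (median 2.46), 1.76 to 3.48 FPKM in catgut group 1 (median 2.43) and 1.59 to 3.73 FPKM in catgut group 2 (median 2.72). Each trained group had 2 or 3 libraries above every control library, and the rest overlapped with it. The log2 fold change against the control group was 0.48 in catgut group 1 (edgeR unadjusted p = 0.0405, adjusted p = 0.480) and 0.57 in catgut group 2 (SE 0.232, unadjusted p = 0.0296, adjusted p = 0.244, exact permutation p = 0.0758). The summed smooth muscle markers Acta2, Myh11, Tagln and Cnn1 were 38.6 to 91.8 FPKM in the control group (median 61.1) and 62.3 to 147 FPKM in catgut group 2 (median 105). Their part in the Pln values was not tested.

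Pvalb encodes parvalbumin, the calcium buffer of fast fibres (ENSRNOG00000006471, chromosome 7, 119429019 to 119441487). With a mean of 6271 FPKM it stood above 99.9 percent of all genes listed. Its level was 5798 to 9804 FPKM in the control group (median 7559), 4407 to 9370 FPKM in the treadmill group (median 6886), 2993 to 7772 FPKM in catgut group 1 (median 5807) and 2537 to 7285 FPKM in catgut group 2 (median 5476). The highest catgut 2 libraries were inside the control range, and 3 of the 6 lay below it. Its log2 fold change in catgut group 2 against the control group was -0.67 (SE 0.252, edgeR unadjusted p = 0.0203, adjusted p = 0.210, exact permutation p = 0.0411). With the slow fibre level as a covariate it was -0.36, with an unadjusted p of 0.226. Of the 6 fast fibre markers, 3 had an unadjusted p under 0.05 in this comparison, all lower in catgut group 2. Of all genes tested, 16.4 percent had one, 8.4 percent with a lower level. After adjustment 0 of the 6 markers had a p under 0.05, and their median log2 fold change was -0.32.

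Rcan1 encodes the regulator that binds and inhibits calcineurin (ENSRNOG00000001979, chromosome 11, 32539683 to 32550539). It has alternative first exons, of which an inner one is known to answer to NFAT, and the deposited table gives all of them 1 value. Its level was 11.6 to 33.1 FPKM in the control group (median 16.2), 16.8 to 30.2 FPKM in the treadmill group (median 24.4), 12.9 to 38.5 FPKM in catgut group 1 (median 20.7) and 15.2 to 30.4 FPKM in catgut group 2 (median 21.5). The ranges overlapped in every pair, and the gene passed the unadjusted threshold in 0 of the 6 comparisons. Without control replicate 2, whose 33.1 FPKM stood apart from the 18.1 FPKM of the next library, Rcan1 met the fold and p criterion in the treadmill group and in catgut group 1 against the control group.

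The 250 bases before the RefSeq start of Rcan1, on the minus strand of chr11:45118237-45118486 in GRCr8, are shown because NFAT is the known regulator of this gene. Which of its first exons this start belongs to was not determined. Matches to GGAAA on either strand are again in capitals.
Rcan1: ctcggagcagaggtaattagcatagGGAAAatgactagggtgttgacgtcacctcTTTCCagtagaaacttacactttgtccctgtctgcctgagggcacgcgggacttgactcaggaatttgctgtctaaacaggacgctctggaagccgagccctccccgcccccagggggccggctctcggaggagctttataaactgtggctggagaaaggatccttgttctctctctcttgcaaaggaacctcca
The core occurred 2 times. Of the 8 members with a promoter entry, 3 held it, Trdn, Jph2 and Rcan1, beside 56.9 percent of all promoters. Ryr1 and Pvalb, whose means were also lower in catgut group 2, had 0 matches. The MEF2 core, CTA and TAG on either side of 4 bases of any kind, was in 0 of the 8 and in 3.41 percent of all promoters, and the E-box CAGCTG, a site of myogenic factors, was in 2 of the 8, Stac3 and Cacna1s, and in 12 percent of all. Sln and Jph1 had no entry.

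Set side by side, the comparisons differed in how many of the 10 genes passed. Between the treadmill and control groups, Trdn and Jph1 had an unadjusted p under 0.05, both with the lower level in the treadmill group, where 9.12 percent of all genes tested did so and 5.08 percent with a lower level. After adjustment 0 of the 10 genes passed in edgeR, against 0.0542 percent of all, and 0 met the fold and p criterion, against 2.85 percent. Between catgut group 1 and the treadmill group, 0 of the 10 had an unadjusted p under 0.05, against 6.93 percent of all genes tested, and the smallest adjusted p was 0.911. Of all genes, 0.0474 percent passed the adjustment there and 3.12 percent met the criterion, which 0 of the 10 did. Between catgut group 2 and the treadmill group, Jph2 and Ryr1 had an unadjusted p under 0.05, against 10.7 percent of all (5.14 percent with a lower level). There 0 of the 10 passed the adjustment, against 0.237 percent of all, and 0 met the criterion, against 3.76 percent. Between the catgut groups, 0 of the 10 had an unadjusted p under 0.05, against 3.26 percent of all, 0 passed the adjustment, against 0.00677 percent, and 0 met the criterion, against 1.25 percent.

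Against the control group, 4 of the 10 genes had an unadjusted p under 0.05 in catgut group 1, with Pln higher and Trdn, Jph1 and Jph2 lower, where 9.84 percent of all genes tested did and 5.06 percent with a lower level. Of these, 0 passed the adjustment, against 0.0203 percent of all. Only Trdn met the fold and p criterion, against 4.62 percent of all, and without catgut 1 replicate 5 it did not. In catgut group 2, 6 of the 10 had an unadjusted p under 0.05, with Pln higher and Jph2, Trdn, Ryr1, Jph1 and Pvalb lower, where 16.4 percent of all genes tested did and 8.4 percent with a lower level. Jph2, Trdn and Pvalb met the fold and p criterion there, against 5.95 percent of all (2.43 percent with a lower level). The libraries of the groups did not overlap for Jph2 and Ryr1, against 1.09 percent of all genes (0.366 percent with a lower level). The median log2 fold change of the 10 genes in this comparison was -0.22, beside -0.00 for all genes tested.

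**Figure D3:**
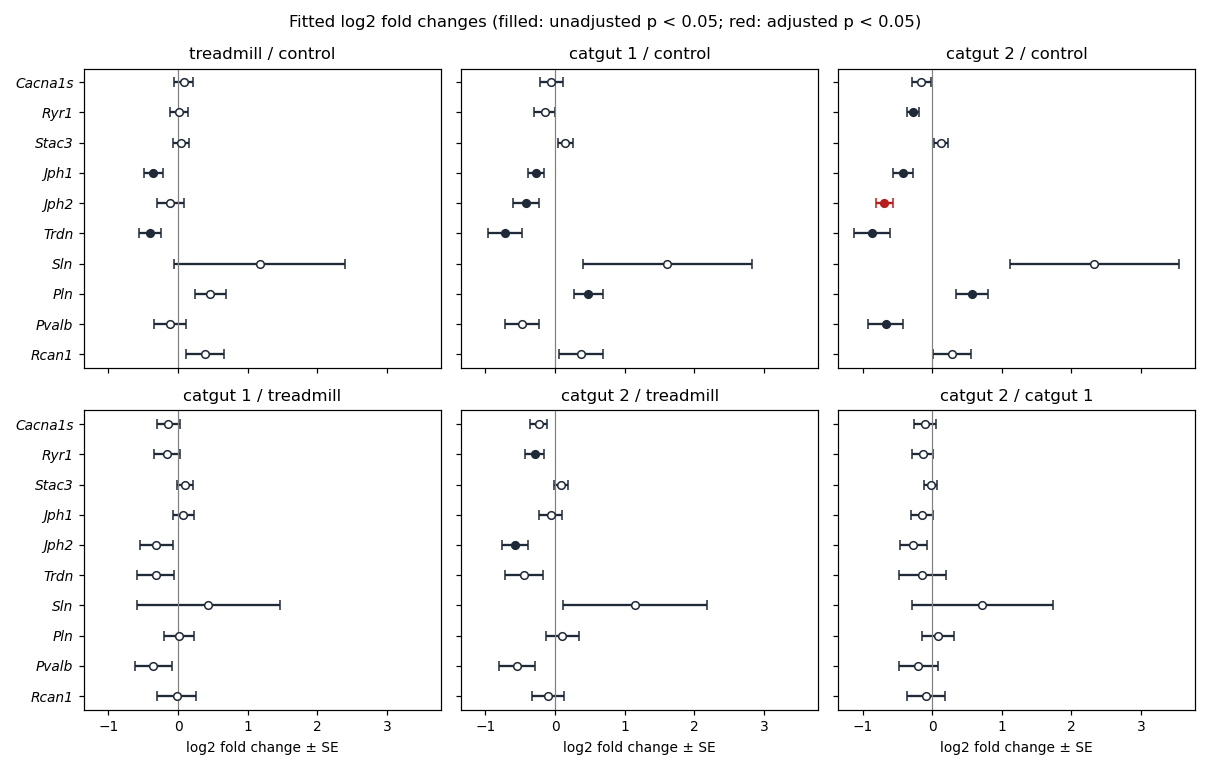
Each point is the fitted log2 fold change of a gene, with its standard error as the bar, in 1 panel per comparison, filled where the unadjusted p is under 0.05 and red where the adjusted p is. Jph2 at -0.69 in catgut group 2 against the control group is the only red point, and Sln has the widest bars, with an SE of 1.22 in that panel.

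Between catgut group 2 and the control group the 6 slow fibre markers had a median log2 fold change of 2.04, yet 0 of the 6 had an unadjusted p under 0.05. Within each group the rats differed widely in this level, so each gene was also fitted over the 24 libraries with the group and the log2 of this level as terms, a fit added after the data were seen. A slope of 1 means that a gene doubled when the slow fibre level doubled. Of all genes tested, 9.12 percent had a slope with an adjusted p under 0.05, 5.44 percent with a positive and 3.68 percent with a negative slope. Of the 10 genes, 4 did. Sln had a slope of 0.73 (SE 0.123, edgeR adjusted p = 0.00109) and Rcan1 one of 0.18 (SE 0.0197, adjusted p = 5.53e-06). Both slopes passed in all 24 fits that left out 1 library, at 0.672 to 0.818 for Sln and 0.166 to 0.201 for Rcan1.

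Trdn and Jph1 went the other way. The slope of Trdn was -0.11 (SE 0.0323, edgeR adjusted p = 0.0366) and that of Jph1 -0.06 (SE 0.018, adjusted p = 0.0333). They passed in 15 and 18 of the 24 fits that left out 1 library, with adjusted p-values up to 0.0913 and 0.0706. Pvalb had a slope of -0.08 that did not pass (adjusted p = 0.221). Jph2 had a slope of -0.01 (adjusted p = 0.920), and Pln, Stac3, Ryr1 and Cacna1s had slopes between 0.00 and 0.02 that did not pass either. In the libraries with the highest slow fibre level of catgut groups 1 and 2, at 3271 and 4311 FPKM, Sln was also at its highest, at 35.4 and 60 FPKM. The summed heart markers had a median of 1.54 FPKM in the control group, 5.21 in the treadmill group, 8.87 in catgut group 1 and 8.80 in catgut group 2, with a highest library of 35.7 FPKM. Most of this was Myh6, with medians of 0.682, 4.86, 8.67 and 8.13 FPKM, while Tnnt2 reached 4.56 FPKM and Tnni3 and Myl7 had a median of 0 FPKM in every group. The part of these markers in the Sln values was not tested.

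**Figure D4:**
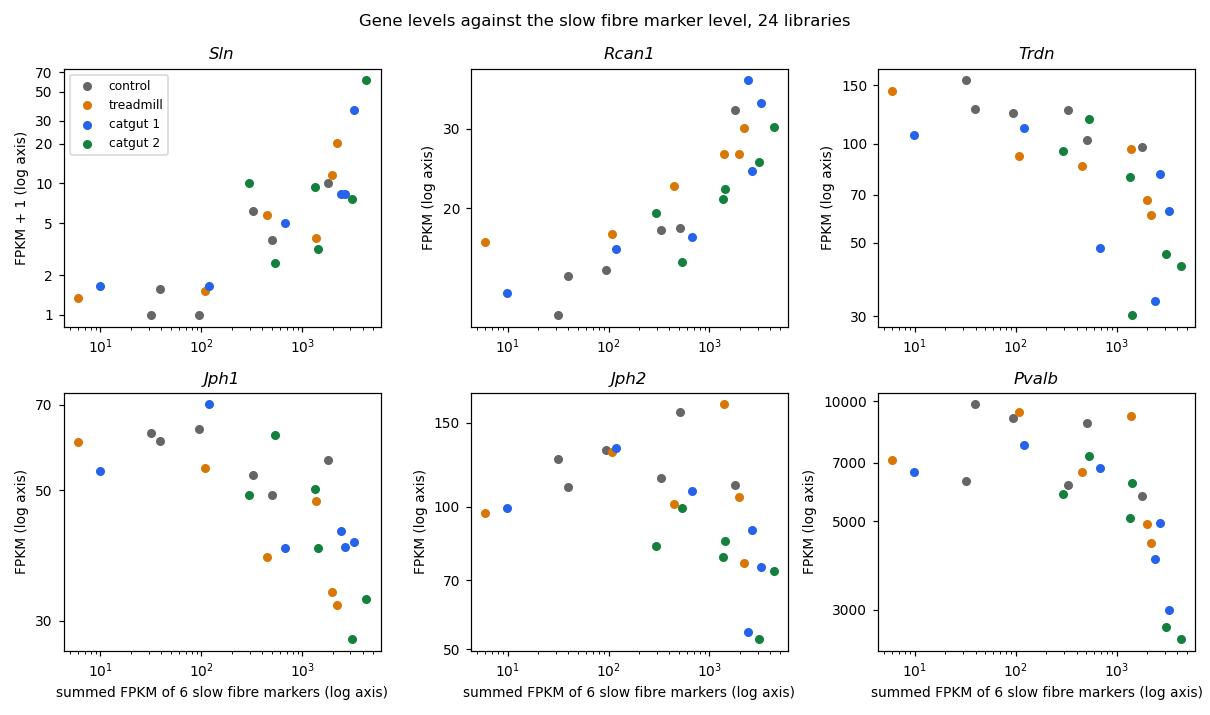
Each point is 1 library, coloured by group, with the summed FPKM of 6 slow fibre markers on the x axis and the FPKM of the gene on the y axis (FPKM + 1 for Sln), both on log axes. Over the 24 libraries Sln and Rcan1 rise with the slow fibre level, with slopes of 0.73 and 0.18, and Trdn and Jph1 are lower at high levels, with slopes of -0.11 and -0.06.

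The other genes of the pathway were followed as 5 lists, and in edgeR's test 0 genes of any list had an adjusted p under 0.05 in any of the 6 comparisons. Of their 73 tested rows, 20 had an unadjusted p under 0.05 in catgut group 2 against the control group, where 16.4 percent of all genes tested did, and 2 to 8 in the other comparisons, where 3.26 to 10.7 percent did. Each list's counts in that comparison stand beside the same 16.4 percent. The first list held 18 tested rows for calcium release and the triad, such as channel subunits and membrane repair proteins. Between catgut group 2 and the control group, 1 was higher and 3 were lower at an unadjusted p under 0.05, and the list median was -0.10 on the log2 scale. The gene that met the fold and p criterion was Ryr3, the minor ryanodine receptor of adult muscle, at 0.146 ± 0.0492 FPKM against 0.0925 ± 0.0369 FPKM in the control group (log2 fold change 0.66, adjusted p = 0.292). Its log2 fold change against the treadmill group was 1.08 (adjusted p = 0.286). Ryr3 lay near the filter of 0.1 FPKM, with means of 0.0925 in the control, 0.0676 in the treadmill and 0.105 FPKM in the catgut 1 group. Its place among the tested genes thus leaned on catgut group 2, so its higher level there is not independent of the filter. Jsrp1, the triad protein JP45 that binds the voltage sensor and calsequestrin, was picked out after its values were seen. It had 143 ± 9.05 FPKM in catgut group 2 and 180.4 ± 15.2 FPKM among treadmill rats, and its log2 fold change was -0.36 (SE 0.0686, edgeR adjusted p = 0.056). Its adjusted p was under 0.05 in 3 of 12 alternatives, with DESeq2 (2.91e-06), the slow fibre level as a covariate (0.0361) and a mean FPKM of at least 1 (0.0331). In the other 9 it went up to 0.221, and in the 12 fits that left out 1 library it was 0.0613 to 0.155. Of all genes tested in this comparison, 309 passed with DESeq2 and 35 in edgeR.

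The second list held 6 tested genes for uptake and storage in the reticulum. Atp2a1, the other SERCA gene on the list, and Mrln had no row under these symbols in the deposited table, so their levels are not known here. Between catgut group 2 and the control group, 2 were higher and 1 was lower at an unadjusted p under 0.05. Casq2, the calsequestrin of heart and slow fibres, had 11.7 ± 6.89 FPKM against 3.39 ± 2.65 FPKM (log2 fold change 1.78, SE 0.577, edgeR adjusted p = 0.166). Atp2a2, which encodes the SERCA pump of heart and slow fibres, had 72.9 ± 57.3 FPKM against 22.6 ± 23.2 FPKM (log2 fold change 1.71, SE 0.664, adjusted p = 0.224). Both followed the slow fibre level over the 24 libraries, with slopes of 0.38 and 0.50 (adjusted p = 0.000148 and 4.27e-07). With that level as a covariate, their log2 fold changes were 0.77 and 0.14. Casq1, the fast calsequestrin, was the lower gene, at 1203 ± 321 FPKM against 1672 ± 323 FPKM (log2 fold change -0.50, adjusted p = 0.194).

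The third list held 16 genes for calcium entry, export and mitochondrial uptake, of which 2 were higher and 3 lower in catgut group 2 than in the control group at an unadjusted p under 0.05. Trpc1, a channel of the cell surface, had 0.340 ± 0.0877 FPKM against 0.184 ± 0.0727 FPKM (log2 fold change 0.88, edgeR adjusted p = 0.181). Atp2b4, a calcium pump of the cell surface, was at 0.706 ± 0.255 FPKM in catgut group 1, against 1.19 ± 0.451 FPKM among treadmill rats (log2 fold change -0.76, adjusted p = 0.505). The fourth list held 21 tested genes for calcineurin, NFAT and the calmodulin kinases, of which 0 were higher and 4 lower in catgut group 2 than in the control group at an unadjusted p under 0.05. Camk2g, a calmodulin kinase, was at 2.97 ± 3.53 FPKM in the control group, 1.35 ± 0.528 in the treadmill group and 3.27 ± 2.94 in catgut group 2. Its log2 fold change was -1.19 in the treadmill against the control group (adjusted p = 0.544), and -0.17 without control replicate 6. In catgut group 2 against the treadmill group it was 1.34 (adjusted p = 0.338), and 0.63 without catgut 2 replicate 1. In this list, Myoz2, the calcineurin-binding protein of slow fibres, had the steepest slope on the slow fibre level, at 0.99 (adjusted p = 2.16e-12).

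The fifth list held 12 genes of membrane excitability, of which 2 were higher and 2 lower in catgut group 2 than in the control group at an unadjusted p under 0.05. Atp1b1, a subunit of the sodium and potassium pump, had 37.2 ± 13.4 FPKM against 13.7 ± 7.98 FPKM (log2 fold change 1.45, SE 0.381, edgeR adjusted p = 0.111). It too followed the slow fibre level, with a slope of 0.29 (adjusted p = 3.61e-06), and its log2 fold change was 0.69 with that level as a covariate. With DESeq2, which passed 695 of all genes tested here against 75 in edgeR, its adjusted p was 0.0235. The list medians in this comparison were -0.04, 0.03, -0.14 and 0.08 for the second to the fifth list, beside -0.00 for all genes tested.

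**Figure D5:**
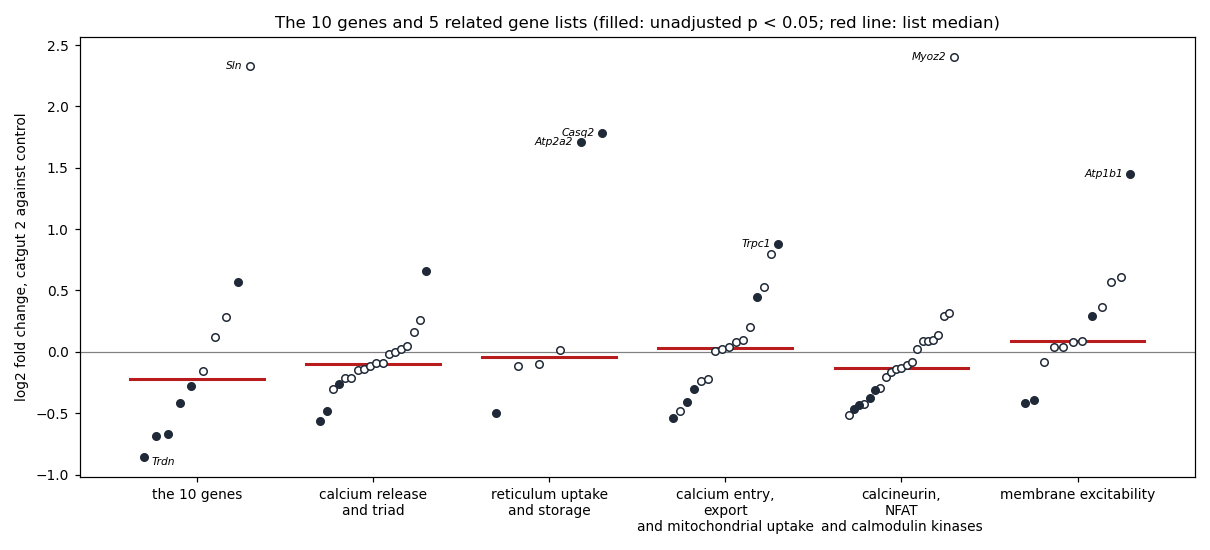
Each point is the log2 fold change of 1 gene between catgut group 2 and the control group, for the 10 genes and 5 related lists along the x axis, filled where the unadjusted p is under 0.05, with the list median as a red line. Most genes lie near 0, and Sln, Myoz2, Casq2, Atp2a2 and Atp1b1, which followed the slow fibre level, are at the top of their lists at 2.33, 2.40, 1.78, 1.71 and 1.45.

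For each of the 10 genes, the tested gene with a mean of at least 1 FPKM and the highest Pearson correlation of log2(FPKM + 1) over the 24 libraries was looked up as a description. It was Casq2 for Sln (0.935), Casq1 for Pvalb (0.973) and Myh10 for Rcan1 (0.905). It was Mtmr6 for Jph1 (0.968), Adipor1 for Jph2 (0.900), Ube3b for Ryr1 (0.915) and Tal1 for Pln (0.817). For Trdn and Cacna1s it was a gene with only a clone name, AABR07043421 (0.901) and AABR07005775 (0.838), and Stac3 had the lowest such value, 0.765 with Saraf. The points share their groups, their libraries and their fibre makeup, so these values describe likeness over these rats only.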

How the data were processed

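Quadriceps RNA was prepared with Trizol, selected for poly(A) and sequenced as paired ends, 1 library per rat. The submitters' processing notes name HISAT2 2.0 and StringTie 1.3.0. Roles, genome build and counting rule are not given in the sources used here. For every gene and library the authors deposited a count, which is a whole number, and an FPKM value, and FPKM is their scaling to transcript length and mapped fragments. Counts entered the tests as deposited. Every value column belonged to 1 of the 24 libraries, and 0 pairs of libraries were identical.

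The 10 genes and the lists were chosen with earlier results of these data known. A mean of at least 0.1 FPKM was required for testing. The libraries of each pair of groups were normalized by TMM and fitted with edgeR 4.0.16 (R 4.3.3, quasi-likelihood test, two-sided), with Benjamini-Hochberg adjustment over all 14772 genes, and the SE was taken from the fold change and its F statistic. The fold and p criterion is the study's for DEGs, an unadjusted p under 0.05 and a ratio of mean FPKM above 1.5 or below 0.667. Exact permutation tests compared the mean log2(FPKM + 1). All 10 genes are named, with those of each list that met the criterion, at most 4 per list, and, added after their values were seen, Jsrp1, Casq1 and Myoz2. Some results of the lists are not reported here. Each group holds separate rats, and the labels do not tie replicate numbers to a litter, cage or day.

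Alternatives were median-ratio scaling, no filter, a mean FPKM of at least 1, limma 3.58.1 with a pseudocount of 1 or 0.1, DESeq2 1.42.0, the exact permutation test, 1 fit over all 4 groups, counts divided by 4, a covariate of summed Y-linked genes, a block for the replicate number and each library left out. The slow fibre level, as a covariate and as a term over the 24 libraries, was added after the data were seen. The fits were tested on simulated data. Promoters are the 250 bases before the start in RefSeq (GRCr8), and 8 of the 10 genes had an entry. Figures were drawn with matplotlib 3.10.9.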

Additional observations from a re-analysis of the deposited data

Results flagged for a closer look

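In 3 of the 40 groups of 6 values (10 genes in 4 groups), the highest library stood apart from the other 5 by more than Dixon's limit allows, where chance would give about 2. Sln was at 35.4 FPKM in catgut 1 replicate 2, with the next library at 7.34 FPKM, and at 60 FPKM in catgut 2 replicate 6, with the next at 9.11 FPKM. These libraries also had the highest summed slow fibre markers of their groups, 3271 and 4311 FPKM. Rcan1 was at 33.1 FPKM in control replicate 2, with the next library at 18.1 FPKM, and that library had the highest slow fibre level of the control group, 1782 FPKM, and 164 FPKM of summed liver markers. The part of these marker levels in the values was not tested.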

How the results depend on the processing

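The count of genes with an adjusted p under 0.05 between catgut group 2 and the control group was 1 (Jph2). It was 0 with no filter, with limma at either pseudocount, with 1 fit over all 4 groups and with the slow fibre level as a covariate. With DESeq2 it was 3 (Jph2, Trdn and Ryr1). The exact permutation test also gave 0, but it could pass no gene here and cannot decide the call. Jph2 had the smallest p that test can give, 0.00216, and this adjusts to 0.199. Of all genes tested, 75 passed in the reported fit and 695 with DESeq2. With no filter 36 did, with limma 70 and 65, with 1 fit over all 4 groups 94 and with the slow fibre level 26. The replicate block also gave 0, with an adjusted p of 0.127 for Jph2. Of all genes tested, 0 passed with this block. Of the 6 same-numbered pairs per pair of groups, 0 to 3 had a correlation over 0.1. These correlations were -0.176 to 0.101 between the control group and catgut group 2, and 0.0202 to 0.249 between the control group and catgut group 1. The labels do not say what the replicate numbers stand for, so the part of pairing in this loss was not tested. Leaving out 1 library gave 0 to 3, with 1 kept without control replicate 2 or 4, and 3 without catgut 2 replicate 4 (Jph1, Jph2 and Trdn). Of all genes tested, 80 and 87 passed without control replicates 2 and 4, and 492 without catgut 2 replicate 4. In the remaining fits that left out 1 library, 12 to 36 of all genes did. The count for the genes described here thus rose where that for all genes rose most. In the other 5 comparisons the count for the genes described here was 0 under every alternative.

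By the fold and p criterion, catgut group 2 against the control group had 3 genes, 1 with the slow fibre level as a covariate (Jph2), 2 with the replicate block, 4 with the Y-linked covariate, with counts divided by 4 and with limma at a pseudocount of 0.1 (Sln added), and 2 to 4 when 1 library was left out. Catgut group 1 against the control group had 1, 2 with the Y-linked level as a covariate (Sln and Trdn) and 0 to 2 when 1 library was left out, with 2 without control replicate 2 or 4. The treadmill group against the control group had 0, and 0 to 1 when 1 library was left out (Rcan1 without control replicate 2, Trdn without treadmill replicate 2). Catgut group 2 against the treadmill group had 0, and 0 to 3 when 1 library was left out, with 2 without treadmill replicate 3 (Pvalb and Jph2) and 3 without catgut 2 replicate 4 (Pvalb, Jph2 and Trdn). Of all genes tested, 5.95, 4.62, 2.85 and 3.76 percent met the criterion in these reported fits, in the order given. For the alternatives this share was not counted. With an unadjusted p under 0.05 alone, catgut group 2 against the control group had 2428 of all genes. It had 1971 with the slow fibre level as a covariate and 2992 without catgut 2 replicate 4. Catgut group 2 against the treadmill group had 1587, and 1652 without catgut 2 replicate 4. The log2 fold change of Sln reversed in 3 fits that left out 1 library. For catgut group 1 against the treadmill group these fits ran from -0.712 (without catgut 1 replicate 2) to 1.17. They ran from -0.315 to 1.88 for catgut group 2 against the treadmill group and from -0.746 to 1.87 for catgut group 2 against catgut group 1, the lowest without catgut 2 replicate 6 in both. Of the log2 fold changes refitted (Sln in all comparisons, and other named genes where their unadjusted p was under 0.05 and the value is printed), no other changed direction. Those of Cacna1s, Stac3 and Rcan1 were not refitted as single values. The causes of these changes were not tested.

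Cage and batch are not in the labels, and their part was not tested. Sex, by Y-linked level, was unequal in the comparisons with catgut group 2. Counts at or under 12 cannot separate a low from an absent Sln transcript.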
